A study of Mus musculus with 6 samples.

Results

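Genes of hepatic stellate cells, fibroblasts and the extracellular matrix were measured in livers of Nrf2 knockout mice and of wild-type mice. The list held 33 genes, taken for their known place in these cells. The rule itself uses no measured value, but the genes were chosen with earlier results of these data known. Probe sets annotated to exactly 1 of these genes were taken, which gave 73 of the 45101 probe sets on the array and 32 of the 33 genes, out of 18194 genes with such a probe set. Fbn1 was not analysed here, and Ctgf carries the current symbol Ccn2. Of the 32 genes, 30 had a probe set bright enough to be tested (51 probe sets), while Timp1 and Lox had none.

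Liver of the Nrf2 knockout, labelled Nrf2 ko, was set against wild-type liver, labelled Nrf2 wt. All mice had the strain label C57B/SV129 and were 10 weeks old, and the labels name no injury, surgery or treatment in either genotype. They also name no Cre driver and no cell type for the knockout. There were 6 biotin-labelled 1-colour arrays, 3 for each genotype, with the RNA of 3 animals pooled on each. The spread between arrays is thus a spread between pools, it leaves out the spread between animals, and the number of arrays limits the precision of every value.

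Hepatic stellate cells lie between the sinusoidal endothelium and the hepatocytes, where they store vitamin A as retinyl esters. After liver injury they can turn into contractile myofibroblasts that secrete fibrillar collagens, and together with portal fibroblasts they are the main source of scar matrix in fibrosis. In uninjured liver most of the matrix lies around portal tracts, central veins and in the capsule, with a thin layer of collagens and proteoglycans along the sinusoids. The Nfe2l2 gene product, Nrf2, switches on detoxification genes through a DNA motif in their promoters known as the antioxidant response element.

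Because Nrf2 acts through that element, the promoters of the genes were searched for its core, TGACNNNGC, on both strands. RefSeq windows of assembly GRCm38.p6, with 250 bases before and 50 after a transcript start, were at hand for 20 of the 32 genes. The core was found in 4 of these 20 genes, namely Des, Col6a2, Col4a2 and Timp2. Over all 27025 genes with a window, 14.0% held it, so that 4 of 20 is no result about these genes. The 4 windows are printed here 5′ to 3′ on the strand of the gene, since they hold the letters of the Nrf2 element in genes measured below, with the matched bases in capitals.
Des, chr1:75360042-75360341, plus strand: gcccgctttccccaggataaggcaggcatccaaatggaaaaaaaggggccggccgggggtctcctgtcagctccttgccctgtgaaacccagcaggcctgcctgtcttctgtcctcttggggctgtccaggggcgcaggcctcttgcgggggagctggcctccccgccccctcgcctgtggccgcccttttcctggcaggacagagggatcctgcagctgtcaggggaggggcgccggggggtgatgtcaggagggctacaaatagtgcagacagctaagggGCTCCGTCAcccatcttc
Col6a2, chr10:76623355-76623654, minus strand: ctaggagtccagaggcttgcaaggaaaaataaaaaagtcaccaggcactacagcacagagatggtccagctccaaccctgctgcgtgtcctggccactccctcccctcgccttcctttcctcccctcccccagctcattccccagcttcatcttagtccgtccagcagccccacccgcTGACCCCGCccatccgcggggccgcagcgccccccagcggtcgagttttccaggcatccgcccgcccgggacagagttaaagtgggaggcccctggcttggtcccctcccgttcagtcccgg
Col4a2, chr8:11312555-11312854, plus strand: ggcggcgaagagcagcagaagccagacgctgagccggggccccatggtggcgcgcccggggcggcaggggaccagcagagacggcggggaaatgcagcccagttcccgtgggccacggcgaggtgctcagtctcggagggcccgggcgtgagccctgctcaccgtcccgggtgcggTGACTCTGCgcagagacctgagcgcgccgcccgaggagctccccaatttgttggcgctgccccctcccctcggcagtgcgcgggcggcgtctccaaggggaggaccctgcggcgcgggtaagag
Timp2, chr11:118355362-118355661, minus strand: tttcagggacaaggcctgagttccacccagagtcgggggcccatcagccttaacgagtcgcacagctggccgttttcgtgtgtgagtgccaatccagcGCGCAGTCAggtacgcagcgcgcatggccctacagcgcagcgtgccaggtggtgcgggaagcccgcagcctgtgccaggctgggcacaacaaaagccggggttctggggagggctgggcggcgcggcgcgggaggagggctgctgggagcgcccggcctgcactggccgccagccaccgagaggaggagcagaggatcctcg
In the Des and Timp2 windows the core reads on the strand opposite to the gene, so the capitals show its complement. It lay at bases 283 to 291 of the Des window, 179 to 187 of the Col6a2 window, 177 to 185 of the Col4a2 window and 99 to 107 of the Timp2 window. The core shares its first bases with the AP-1 motif TGACTCA, and none of the 4 windows held TGACTCA or TGAGTCA. The Col4a2 window overlapped that of Col4a1 by 78 bases, as these collagen IV genes start head to head. These matches describe letters in a window and not binding sites. The log2 differences of these 4 genes between the genotypes, given below, were 1.00 for Des, 0.56 for Col6a2, -0.13 for Col4a2 and -0.04 for Timp2, and none of them passed the test.

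The arrays as a whole gave a short list of altered transcripts. Intensities were put on a log2 scale after adding 5.26, quantile normalized between arrays and compared with limma, with Benjamini-Hochberg adjustment over 22519 probe sets and a threshold of 0.05. A log2 difference is knockout minus wild type on this scale, and for dim intensities it is smaller than the log2 ratio itself. The intensity of Nfe2l2 was 5.74, 7.40 and 6.90 in the knockout pools, against 696, 598 and 625 in the wild-type pools. All 6 arrays thus matched their labels. Over all probe sets 32 passed, 10 higher and 22 lower, against 10 higher and 31 lower with arrays centred on their medians, and 37 higher and 106 lower with no scaling between arrays, a setting added after the data were seen. By gene, 16 of 11102 passed, or 0.144%. The 2% trimmed mean intensity ran from 92.1 to 120 in the knockout pools and from 92.0 to 131 in the wild-type pools. The ratio of 3′ to 5′ actin signal, a sign of RNA integrity, averaged 1.97 ± 0.03 over knockout pools and 1.86 ± 0.08 over wild-type pools (SD, n = 3 each, exact two-sided permutation p = 0.1, the smallest that 3 against 3 can give), and that of Gapdh was 0.767 ± 0.037 and 0.760 ± 0.006 (exact permutation p = 0.9). Whether RNA integrity had a part in the values below was not tested.

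Most stellate, fibroblast and matrix genes had a higher mean in knockout liver, by small amounts, and none passed the test. Taking each gene at its brightest probe set, 27 of the 30 tested genes had a positive log2 difference and 3 a negative one, where 51.4% of all genes tested had a positive one. The median difference of the 30 genes was 0.24, a 1.18-fold higher intensity in the knockout, and it was 0.01 for all genes tested. By limma 0 of the 30 passed over all probe sets, the lowest adjusted p being 0.392 for Bgn, and 0 passed by the fits with array weights, without the intensity trend or with the replicate number as a block. At an unadjusted p under 0.05 there were 6 genes, Bgn, Col6a1, Des, Lum, Col5a2 and Mmp2, all with a positive difference, or 6 of 30 where 4.07% of all genes reached this with a positive difference and 4.15% with a negative one. The differences ran from -0.13 for Col4a2 to 1.00 for Des. The brightness filter used the mean over all 6 pools. Des, Thy1 and Fbln1 passed it only through their higher knockout values, and their normalized wild-type means were 4.05, 4.19 and 4.33. These genes add to the counts of positive differences. With no filter, 28 of 32 genes had a positive difference, where 50.5% of all genes did. Whole liver RNA was measured, so more cells of a type and more RNA per cell cannot be told apart.

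The count of positive differences changed with the pools used. It was 25 of 28 tested genes without knockout pool 1, 19 of 27 without knockout pool 2 and 20 of 27 without knockout pool 3. It was 26, 24 and 28 of 30 without wild-type pools 1, 2 and 3. Over these fits 49.5% to 53.5% of all genes had a positive difference. Fewer genes were bright enough to be tested with a knockout pool left out, and Des was then not tested. With no scaling between arrays the count was 20 of 30, where 23.6% of all genes had a positive difference. On that scale the median of all genes moved to -0.14 and that of the 30 genes was 0.10. Relative to the median of all genes, the 30 genes stood 0.235 higher on the quantile normalized scale and 0.240 higher on the median centred and unscaled scales. The median centred and unscaled values are equal by construction, since centring moves all genes of an array by the same amount.

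**Figure D1:**
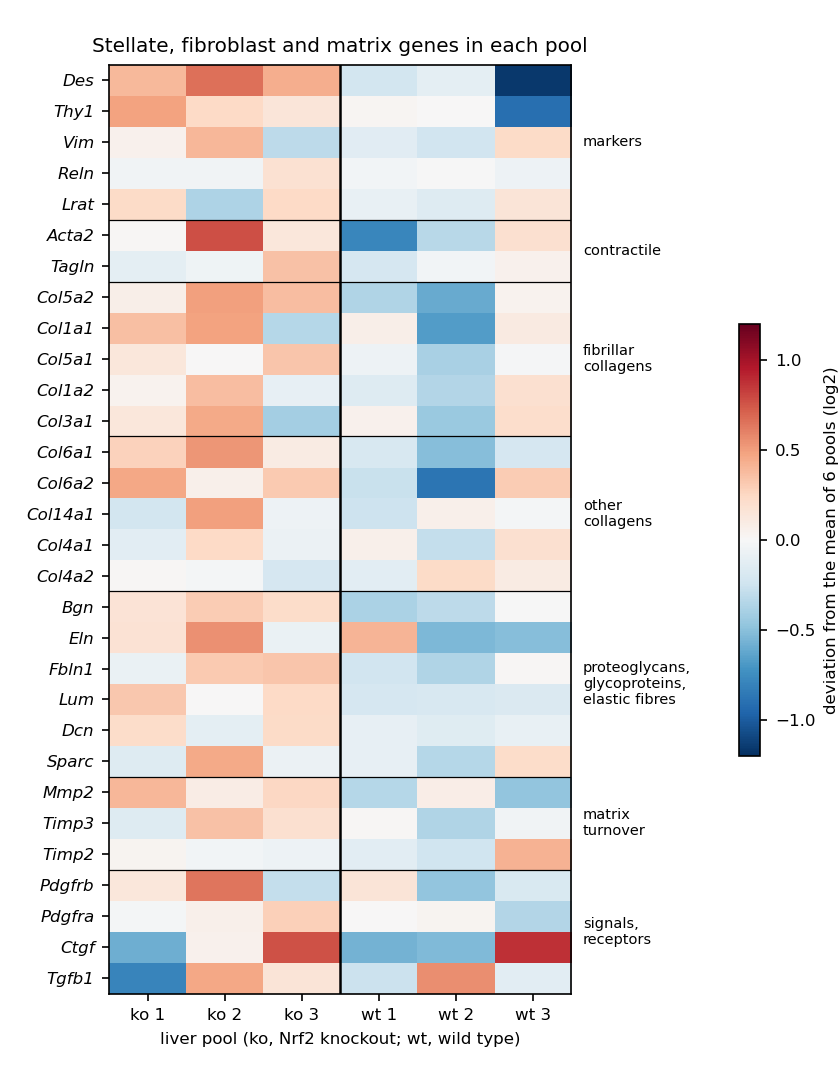
Normalized log2 intensity of each of the 30 tested genes at its brightest probe set, as the deviation from the mean of the 6 pools (colour), with the knockout pools at the left, the wild-type pools at the right, and genes grouped by role. Knockout pool 2 holds the highest value of 15 genes and wild-type pool 2 the lowest value of 15 genes.

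The pools of a genotype were not alike for these genes. On the normalized scale knockout pool 2 was highest of all 6 pools for 15 of the 30 genes, where it was highest for 23.5% of all genes tested. Wild-type pool 2 was lowest for 15 of the 30, where it was lowest for 15.5% of all genes. The median deviation of the 30 genes from the mean of the 6 pools was 0.06, 0.31 and 0.17 in the knockout pools, against -0.13, -0.30 and 0.01 in the wild-type pools. The lowest knockout pool and the highest wild-type pool were therefore closer to each other on this measure than the pools of either genotype were among themselves. Within a genotype the median SD of the 30 genes was 0.23 for knockout pools and 0.26 for wild-type pools, against 0.17 and 0.15 for all genes tested. The groups of 3 did not overlap for 8 of the 30 genes, all higher in the knockout, where 7.38% of all genes did so with the knockout higher and 6.55% with the knockout lower. The 8 genes were Lum, Bgn, Col5a1, Col5a2, Col6a1 and Mmp2, with Des and Thy1, which passed the brightness filter only through the knockout pools. With arrays centred on their medians all 8 genes but Col5a2 still did not overlap, 7 of the 30. There 4.49% of all genes did so with the knockout higher and 8.6% with the knockout lower. In the deposited intensities, with no scaling, Des, Col6a1 and Mmp2 were higher without overlap and Col4a2 was lower without overlap, where 0.784% of all genes were higher and 6.47% lower in this way.

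**Figure D2:**
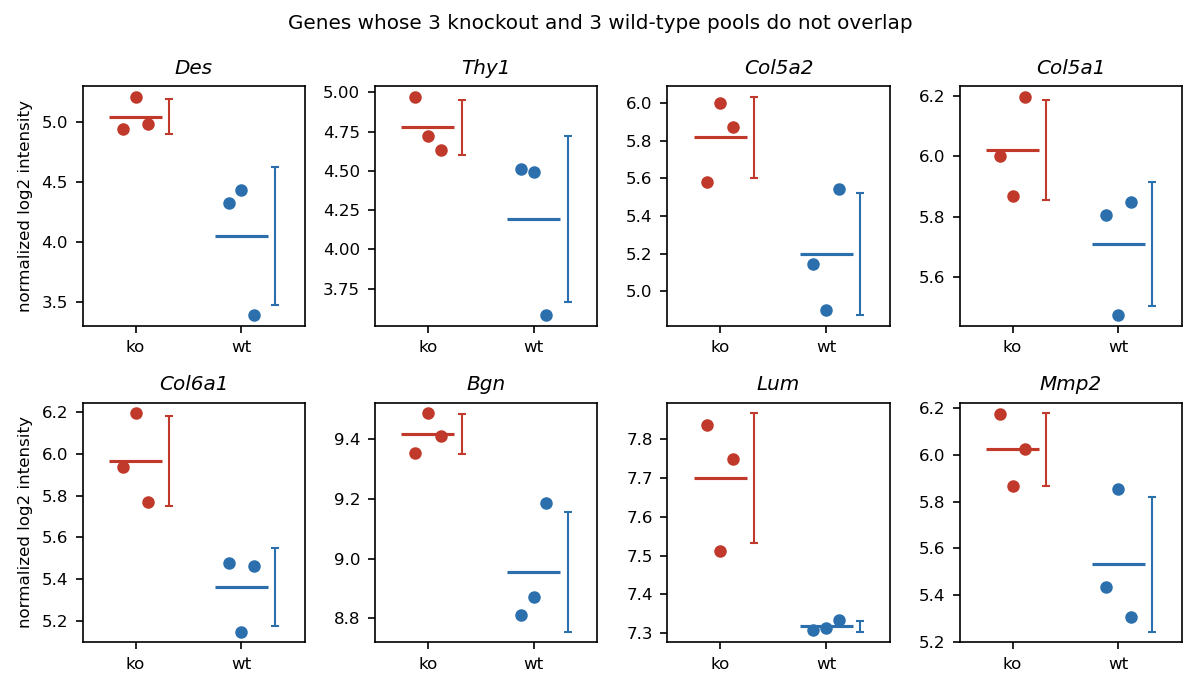
Normalized log2 intensity (vertical axes, each with its own range that does not start at 0) of the 8 genes whose 3 knockout pools all lay above the 3 wild-type pools, with knockout at the left of each panel. Points are pools, horizontal lines are means and error bars are SDs (n = 3). Wild-type pool 3, at 3.39 and 3.58, lies far below the other wild-type pools for Des and Thy1.

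Among the markers of stellate and other mesenchymal cells, the defining stellate genes ranged from dim Des, with a wide gap between the genotypes, to Reln and Lrat, with nearly equal means. Des encodes desmin, the muscle-type intermediate filament used to stain rodent stellate cells. At its brighter probe set the intensity was 22.1, 29.8 and 28.8 in the knockout pools, against 18.0, 12.9 and 6.02 in the wild-type pools. All knockout pools lay above all wild-type pools, and wild-type pool 3 stood lowest. The log2 difference was 1.00 ± 0.31 (SE, n = 3 per genotype; limma adjusted p = 0.514), with a 95% interval from 0.30 to 1.69. These intensities are near the value added before the log, and a second Des probe set, too dim to be tested, had a difference of -0.19. With a pseudocount 4 times as large the difference at the brighter one was 0.58.

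Reln encodes reelin, a secreted glycoprotein that marks stellate cells in liver. Its intensities were 706, 783 and 1084 in the knockout pools, against 1022, 736 and 976 in the wild-type pools, and the genotypes overlapped. The difference was 0.07 ± 0.09, with an interval from -0.14 to 0.28. Lrat makes the retinyl esters that stellate cells store. It gave intensities of 162, 116 and 211 in the knockout pools, against 184, 122 and 210 in the wild-type pools, with a difference of 0.06 ± 0.18 (interval -0.36 to 0.48). The second tested Lrat probe set gave 0.09 ± 0.20. With no scaling between arrays the signs turned, to -0.10 for Reln and -0.08 for Lrat.

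Vim, the intermediate filament gene of mesenchymal cells at large, had a difference of 0.09 ± 0.20, and its 3 tested probe sets did not share a sign. Thy1 encodes a surface glycoprotein found on portal fibroblasts and lymphocytes. It had normalized log2 values of 4.97, 4.72 and 4.64 in the knockout pools, against 4.51, 4.49 and 3.58 in the wild-type pools. The groups did not overlap, yet the gap between knockout pool 3 and wild-type pool 1 was smaller than the spread of either genotype, and the difference was 0.58 ± 0.30 (limma adjusted p = 0.701). It was 0.28 without wild-type pool 3, and 0.33 with a pseudocount 4 times as large.

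The contractile genes, which mark smooth muscle of vessels and, after activation, myofibroblasts, overlapped between the genotypes. Acta2, alpha smooth muscle actin, gave intensities of 106, 196 and 147 in the knockout pools, against 83.4, 81.5 and 163 in the wild-type pools. Wild-type pool 3 lay within the knockout range and the other wild-type pools below it. The difference was 0.62 ± 0.27, with an interval from -0.01 to 1.24 and an adjusted p of 0.657 by limma. It was 0.38 whether knockout pool 2 or wild-type pool 1 was left out. Other Acta2 probe sets, too dim to be tested, had differences of -0.40 and 0.07. Tagln, the actin-binding protein transgelin of the same cells, gave intensities of 29.4, 33.5 and 53.1 in the knockout pools, against 38.5, 29.8 and 45.4 in the wild-type pools. Its difference was 0.12 ± 0.19, and it was -0.03 with knockout pool 3 left out and 0.05 with wild-type pool 1 left out.

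The 5 fibrillar collagen genes all had positive differences, with a median of 0.31, and the largest was that of Col5a2, a chain of type V, the minor collagen that starts type I fibrils and limits their width. Col1a1 and Col1a2 encode the chains of type I collagen. Col1a1 gave intensities of 30.7, 36.6 and 21.3 in the knockout pools, against 33.7, 11.7 and 33.5 in the wild-type pools. Wild-type pool 2 stood far below the other pools, and wild-type pools 1 and 3 lay inside the knockout range. The difference was 0.33 ± 0.30 with an interval from -0.36 to 1.02, so a difference of 2-fold higher could not be left out. It was 0.075 without wild-type pool 2, 0.17 without knockout pool 2 and 0.58 without knockout pool 3. Col1a2 was at 148, 201 and 171 in the knockout pools, against 182, 110 and 225 in the wild-type pools, with a difference of 0.22 ± 0.18. The value was 0.082 without knockout pool 2, 0.091 without wild-type pool 2, 0.36 without wild-type pool 3 and 0.053 with no scaling. Its second tested probe set differed by 0.27 ± 0.21. There the genotypes did not overlap after scaling but nearly touched, at 4.703 in knockout pool 3 and 4.698 in wild-type pool 3. Before scaling they overlapped.

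Col3a1, the chain of the reticular fibres that run along sinusoids, gave intensities of 382, 520 and 343 in the knockout pools, against 519, 255 and 563 in the wild-type pools. The difference was 0.12 ± 0.23 at this probe set and -0.18 ± 0.28 at its second tested probe set, and it was -0.08 with knockout pool 2 left out and -0.07 with wild-type pool 2 left out. On the normalized scale Col1a1, Col1a2 and Col3a1 had the same highest and lowest pools, knockout pool 2 and wild-type pool 2. Before scaling, Col1a2 and Col3a1 were brightest in wild-type pool 3. The same knockout pool 2 and wild-type pool 2 were the extremes of the normalized values for Sparc, Pdgfrb, Timp3, Eln, Col5a2, Col6a1 and Col4a1.

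Col5a2 had normalized log2 values of 5.58, 6.0 and 5.87 in the knockout pools, against 5.15, 4.90 and 5.55 in the wild-type pools. Knockout pool 1 and wild-type pool 3 nearly touched, and the difference was 0.62 ± 0.22 (interval 0.13 to 1.11, limma adjusted p = 0.569). Its other probe set was too dim to be tested and had a difference of 0.04. Col5a1, its partner chain, had a difference of 0.31 ± 0.17, and a second tested probe set of the gene gave 0.29 ± 0.15. The first of these was 0.19 both without wild-type pool 2 and with no scaling. On the normalized scale neither of these Col5a1 probe sets overlapped between the genotypes.

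**Figure D3:**
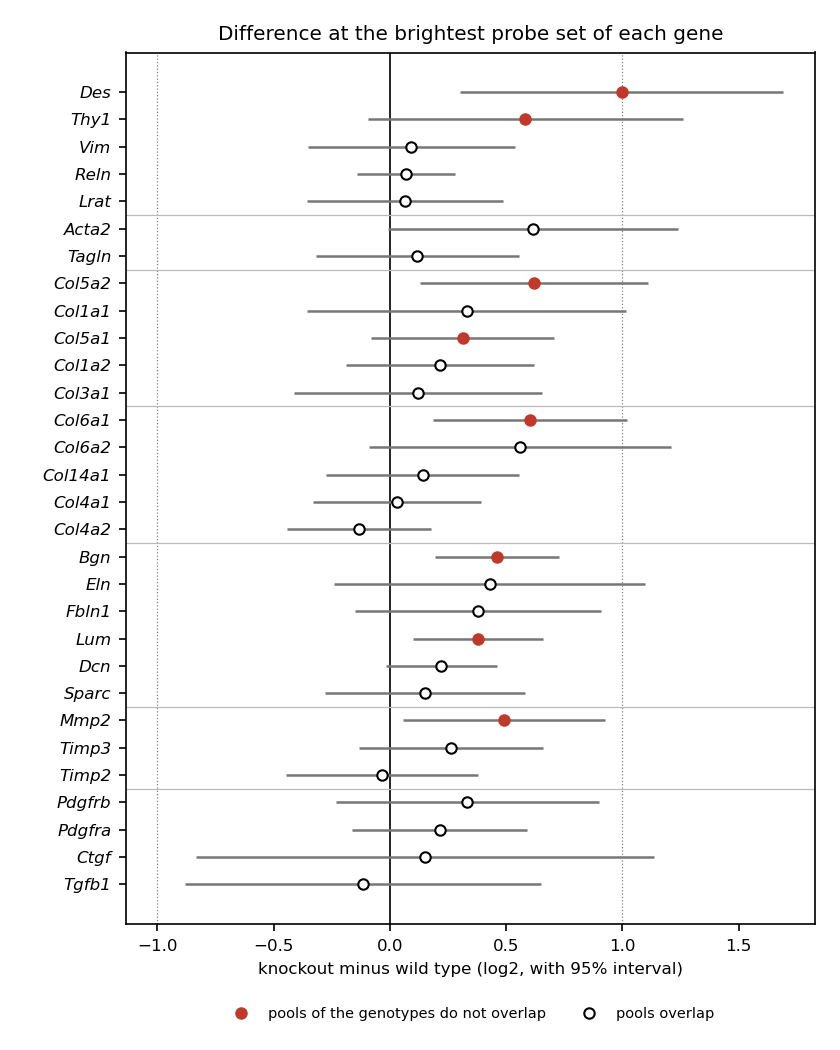
Log2 difference, knockout minus wild type (horizontal axis), of the 30 tested genes with its 95% interval from limma, grouped by role as in the heat map. Filled points are the 8 genes whose pools do not overlap, dotted lines mark a 2-fold difference, and 27 of the 30 points lie above 0.

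Of the 5 other collagen genes, 4 had a positive difference, with a median of 0.14. Col6a1 and Col6a2 encode chains of type VI collagen, which forms beaded filaments around cells. Col6a1 gave intensities of 48.5, 63.5 and 53.0 in the knockout pools, against 47.1, 24.4 and 45.2 in the wild-type pools, with no overlap also before scaling. The difference was 0.60 ± 0.18 (interval 0.19 to 1.02, limma adjusted p = 0.503). Col6a2 had 54.6, 43.6 and 60.8 in the knockout pools, against 43.2, 17.5 and 64.7 in the wild-type pools, where wild-type pool 3 was the brightest of the 6 pools before scaling and wild-type pool 2 the dimmest. Its difference was 0.56 ± 0.29, and 0.32 ± 0.27 at its second probe set.

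Col4a1 and Col4a2 encode the chains of the common type IV collagen of basement membranes. Their promoter windows share 78 bases, and the core was found in the Col4a2 window but not in the Col4a1 window. Col4a1 had a difference of 0.03 ± 0.16, and 0.21 ± 0.16 at its second tested probe set. Col4a2 gave intensities of 132, 139 and 143 in the knockout pools, against 168, 151 and 189 in the wild-type pools. It was lower in every knockout pool before scaling, but after quantile normalization the genotypes overlapped and the difference was -0.13 ± 0.14 (interval -0.44 to 0.17). Col14a1, a collagen bound to the surface of fibrils, differed by 0.14 ± 0.18 and by 0.15 ± 0.13 at its 2 tested probe sets.

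The 6 proteoglycan, glycoprotein and elastic fibre genes tested all had positive differences, with a median of 0.38, and Bgn had the smallest p of all 30 genes. Bgn encodes biglycan, a small leucine-rich proteoglycan that binds collagen and TGF-beta. At its brightest probe set the intensity was 540, 664 and 747 in the knockout pools, against 537, 388 and 678 in the wild-type pools, which overlap before scaling. On the normalized log2 scale these were 9.35, 9.49 and 9.41 in the knockout pools, against 8.81, 8.87 and 9.19 in the wild-type pools, with no overlap. The difference was 0.46 ± 0.12 (interval 0.19 to 0.73, unadjusted p = 0.00376, limma adjusted p = 0.392). Its other tested probe sets gave 0.67 ± 0.22 and 0.18 ± 0.11, so all 3 were positive but their sizes ranged widely. With no scaling the brightest gave 0.30.

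Lum and Dcn encode lumican and decorin, related proteoglycans that space collagen fibrils. Lum had normalized log2 values of 7.83, 7.51 and 7.75 in the knockout pools, against 7.31, 7.31 and 7.33 in the wild-type pools. The wild-type pools were nearly equal and all below the knockout pools, and the difference was 0.38 ± 0.12 (interval 0.10 to 0.66, limma adjusted p = 0.540), or 0.24 with no scaling. Dcn had normalized values of 10.87, 10.54 and 10.88 in the knockout pools, against 10.56, 10.51 and 10.57 in the wild-type pools. For Dcn knockout pool 2 lay among the wild-type pools, and the difference was 0.22 ± 0.10. A second Dcn probe set, too dim to be tested, had a difference of -0.54, with all knockout pools below all wild-type pools after scaling. Knockout pool 2, which held the highest normalized collagen I and III values, was the lowest knockout pool for Lum and Dcn at their tested probe sets.

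Sparc, a matricellular glycoprotein that binds collagen, overlapped between the genotypes with a difference of 0.15 ± 0.19, and 1 of its 3 tested probe sets was negative. Fbln1, encoding fibulin-1 of elastic fibres and basement membranes, had a difference of 0.38 ± 0.23 on dim intensities of 14.4 to 25.8 in the knockout pools, against 9.97 to 21.3 in the wild-type pools. Eln, encoding elastin of vessel walls and portal tracts, gave intensities of 32.01, 46.1 and 32.6 in the knockout pools, against 53.2, 16.4 and 24.8 in the wild-type pools. Wild-type pool 1 was the brightest for Eln before scaling, and the difference was 0.43 ± 0.29.

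Genes that degrade, protect or cross-link matrix showed no common direction. Mmp2 encodes gelatinase A, which cleaves denatured collagen and type IV collagen. It gave intensities of 57.8, 49.5 and 64.3 in the knockout pools, against 45.6, 43.4 and 39.8 in the wild-type pools, without overlap before and after scaling. After scaling the genotypes nearly touched, at 5.867 in knockout pool 2 and 5.853 in wild-type pool 2. The difference was 0.49 ± 0.19 (interval 0.06 to 0.92, limma adjusted p = 0.607), and 0.23 ± 0.19 with overlap at its second probe set. Timp2, an inhibitor of these proteases that also takes part in activating the Mmp2 protein, had a difference of -0.04 ± 0.18 (interval -0.45 to 0.38). Of its 5 tested probe sets 4 were negative, down to -0.51 ± 0.25 at 1 whose pools did not overlap.

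Timp3, the inhibitor that stays bound to matrix, was positive at all 4 tested probe sets, from 0.09 to 0.27. Timp1, which is induced when stellate cells are activated, was too dim to be tested. Its intensities were 12.9, 10.6 and 5.44 in the knockout pools, against 8.19, 4.86 and 13.3 in the wild-type pools, and the genotypes overlapped. Lox, the oxidase that cross-links collagen and elastin, was also too dim, with intensities from 0.392 to 9.42 in the knockout pools and from 0.554 to 13.5 in the wild-type pools over its 3 probe sets.

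The fibrogenic signals varied more between pools of a genotype than between the genotypes. Tgfb1 encodes the cytokine that drives collagen synthesis in stellate cells. Its intensities were 31.2, 87.0 and 80.3 in the knockout pools, against 65.9, 84.9 and 69.5 in the wild-type pools. Knockout pool 1 stood far below the rest, and the difference of -0.12 ± 0.34 was 0.25 without that pool and 0.13 without wild-type pool 2. Ctgf, a matricellular protein gene induced by TGF-beta and by mechanical tension, gave intensities of 67.9, 116 and 227 in the knockout pools, against 96.0, 68.7 and 262 in the wild-type pools. Pool 3 of each genotype was the brightest, and the difference was 0.15 ± 0.43 with an interval from -0.83 to 1.14, turning to -0.19 without knockout pool 3, -0.10 without wild-type pool 1 and -0.08 without wild-type pool 2.

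The platelet-derived growth factor receptors pass on the main mitogenic signal to stellate cells and fibroblasts. Pdgfrb gave intensities of 112, 174 and 104 in the knockout pools, against 161, 70.3 and 119 in the wild-type pools, with a difference of 0.33 ± 0.25. Pdgfra gave intensities of 62.1, 71.8 and 97.5 in the knockout pools, against 88.2, 63.1 and 64.9 in the wild-type pools, with a difference of 0.21 ± 0.16. Both receptors overlapped between the genotypes, and their highest knockout pools were not the same.

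The precision of the measurements allows some bounds. For 21 of the 30 genes the 95% interval lay wholly within a 2-fold difference in either direction, where 92.2% of all genes tested did so. For 9 genes, Des, Acta2, Thy1, Col1a1, Col5a2, Col6a1, Col6a2, Eln and Ctgf, a knockout level 2-fold higher lay inside the interval, and for none of the 30 did a 2-fold lower level. Over the 13 genes with more than 1 tested probe set, 9 had the same sign at all of them, the exceptions being Vim, Col3a1, Sparc and Timp2. Of the 51 tested probe sets 42 were positive and 9 negative, and 7 had an unadjusted p under 0.05, all positive, where 3.75% of all probe sets did so in that direction.

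Genes of the same biology outside the 33 were counted in 5 further lists, and 0 of their tested members passed by limma. Of all genes tested, 51.4% had a positive difference. At an unadjusted p under 0.05 there were 4.07% of all genes with a positive difference and 4.15% with a negative one. Other matrix genes were positive for 21 of 34 tested members, with a median of 0.07 and 1 member at an unadjusted p under 0.05, the fibrillar collagen gene Col27a1 at -0.57 ± 0.22. Next by p were the glycoprotein gene Ecm1 at 0.19 ± 0.09, the calcification inhibitor Mgp at 0.52 ± 0.28 and the basement membrane linker gene Nid1 at 0.20 ± 0.11. Collagen processing genes, which hydroxylate, fold and trim procollagen, were positive for 6 of 17, with a median of -0.06 and 0 at an unadjusted p under 0.05. There the procollagen C-proteinase gene Bmp1 was at 0.22 ± 0.11, the prolyl hydroxylase subunit gene P4hb at -0.09 ± 0.06 and the prolyl 3-hydroxylase gene P3h1 at -0.21 ± 0.14.

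Matrix turnover genes were positive for 10 of 14, with a median of 0.08. Of these, 2 positive and 1 negative member had an unadjusted p under 0.05, against 4.07% and 4.15% of all genes. Mmp19, a matrix metalloproteinase of many tissues, gave intensities of 74.3, 61.0 and 82.5 in the knockout pools, against 119, 117 and 124 in the wild-type pools. All knockout pools lay below all wild-type pools also before scaling, and the difference was -0.57 ± 0.17 (limma adjusted p = 0.503). The lysosomal protease gene Ctsl was at 0.21 ± 0.08 and the shedding protease gene Adam17 at 0.37 ± 0.15. TGF-beta and PDGF signalling genes were positive for 16 of 25, with a median of 0.07 and 0 at an unadjusted p under 0.05. The matricellular gene Ccn1, listed by its older name Cyr61, was at -0.23 ± 0.12, Itgav at 0.18 ± 0.11 and the decoy receptor gene Bambi at 0.32 ± 0.20.

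Other stellate, pericyte and smooth muscle genes were positive for 22 of 31, with a median of 0.10. Of these, 3 positive members had an unadjusted p under 0.05, where 4.07% of all genes did so with a positive difference. Abcc9 encodes a potassium channel regulator of pericytes and stellate cells. It gave intensities of 281, 397 and 395 in the knockout pools, against 337, 205 and 336 in the wild-type pools, and a difference of 0.47 ± 0.13 (limma adjusted p = 0.419). Rgs5, a G-protein signalling regulator gene of the same cells, had 657, 999 and 1098 in the knockout pools, against 904, 446 and 884 in the wild-type pools. Its difference was 0.50 ± 0.16, and wild-type pool 2 was the dimmest of the 6 pools before scaling. Myh11, smooth muscle myosin, had 18.1, 44.5 and 20.8 in the knockout pools, against 8.88, 7.54 and 21.4 in the wild-type pools. Its difference was 0.99 ± 0.36, and with a normalized wild-type mean of 4.03 it passed the brightness filter only through the knockout pools. The Acta2 and Myh11 values were each highest in knockout pool 2.

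**Figure D4:**
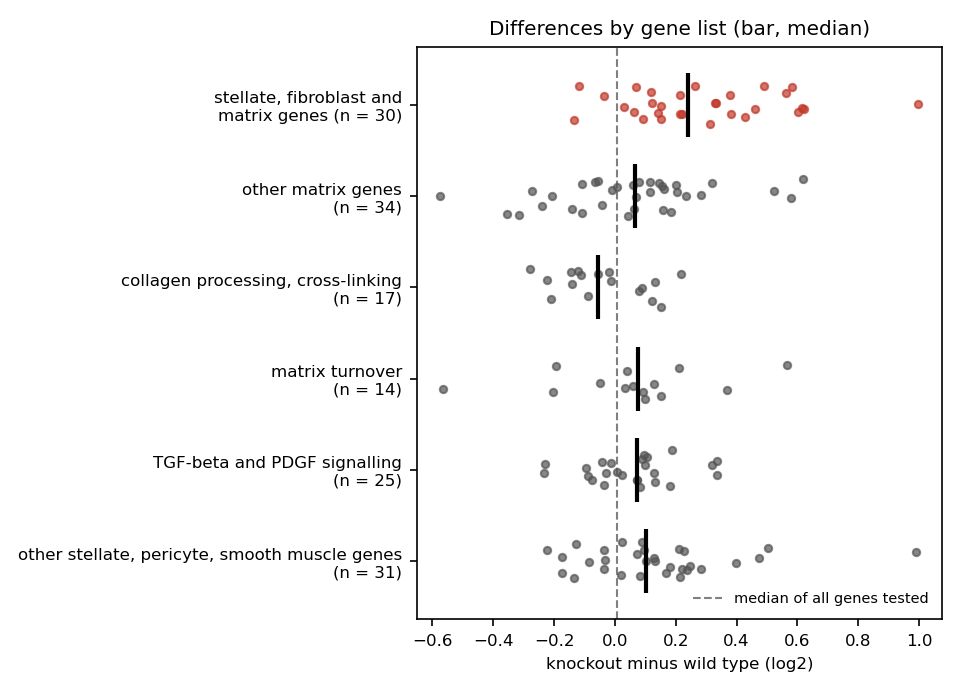
Log2 difference, knockout minus wild type (horizontal axis), of each tested gene (points, spread vertically for legibility) in the 30 genes described and in 5 further lists, with the median of each list as a bar and that of all genes tested as a dashed line. The median is 0.24 for the 30 genes and between -0.06 and 0.10 for the other lists.

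Markers of the cell types in these samples were summed per pool in deposited intensity. With no filter, 50.5% of all genes had a positive difference. The stellate cell list, which shares Des, Lrat, Reln, Pdgfrb and Dcn with the genes above, was measured for 11 of 12 genes, and none of them averaged below the added value of 5.26. Its sum ran from 4225 to 6059 in the knockout pools and from 3544 to 5492 in the wild-type pools, and all 11 members had a positive difference without passing, with a median of 0.22. The portal fibroblast and capsule list was positive for 6 of 9 members, with sums of 337 to 411 in the knockout pools and 320 to 473 in the wild-type pools. Its marker Mfap4 gave intensities of 1.01 to 1.27 over all arrays, under the added value. The smooth muscle list was positive for 6 of 7, with sums of 198 to 321 in the knockout pools and 157 to 275 in the wild-type pools, though Cnn1 and Lmod1 averaged below the added value.

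Hepatocyte markers summed to 84527 to 89966 in the knockout pools and 89963 to 93820 in the wild-type pools, with a median difference of 0.04 over 9 of 10 markers. Sinusoidal endothelial markers were positive for 7 of 11, with sums of 3682 to 4680 in the knockout pools and 3360 to 5215 in the wild-type pools and a median of 0.06. Kupffer cell markers were positive for 8 of 10, with sums of 5872 to 6333 in the knockout pools and 4686 to 7705 in the wild-type pools and a median of 0.16. Cholangiocyte markers were negative for all 5 of 7 measured, with sums of 52.4 to 94.8 in the knockout pools and 84.3 to 137 in the wild-type pools and a median of -0.37. Only 2 of these 5 were bright enough to be tested. The others, Krt19, Cldn4 and Krt7, had mean intensities of 12.2, 9.6 and 7.4, near the added value. Mesothelial markers, of the liver surface, were positive for 4 of 7, with sums of 73.3 to 86.8 in the knockout pools and 74.6 to 99.8 in the wild-type pools. Only 1 of these 7 was bright enough to be tested, and Wt1 averaged below the added value. Lymphocyte and granulocyte markers were positive for 6 of 7 measured and fat and pancreas markers for all 5 measured, with medians of 0.37 and 0.10. Of the 7 lymphocyte and granulocyte markers, 3 were bright enough to be tested. The lymphocyte and granulocyte sums were 116 to 230 in the knockout pools and 108 to 180 in the wild-type pools, and the fat and pancreas sums 1012 to 1558 and 888 to 1373. Of the fat and pancreas markers Adipoq and Cpa1 averaged below the added value, and the median of 0.10 is that of Adipoq. Elsewhere, 6 of 9 portal fibroblast and capsule, 4 of 7 smooth muscle and 3 of 5 fat and pancreas markers were tested. No tested marker in any of the lists passed. Before scaling, wild-type pool 2 was lowest of the 6 pools for the summed stellate, endothelial and Kupffer markers, and its trimmed mean intensity was also the lowest. On the normalized scale its median deviation was -0.16 for the stellate list, -0.13 for the endothelial list and -0.10 for the Kupffer list, where wild-type pool 1 was lower at -0.14. The part of cell composition in the matrix values was not tested.

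**Figure D5:**
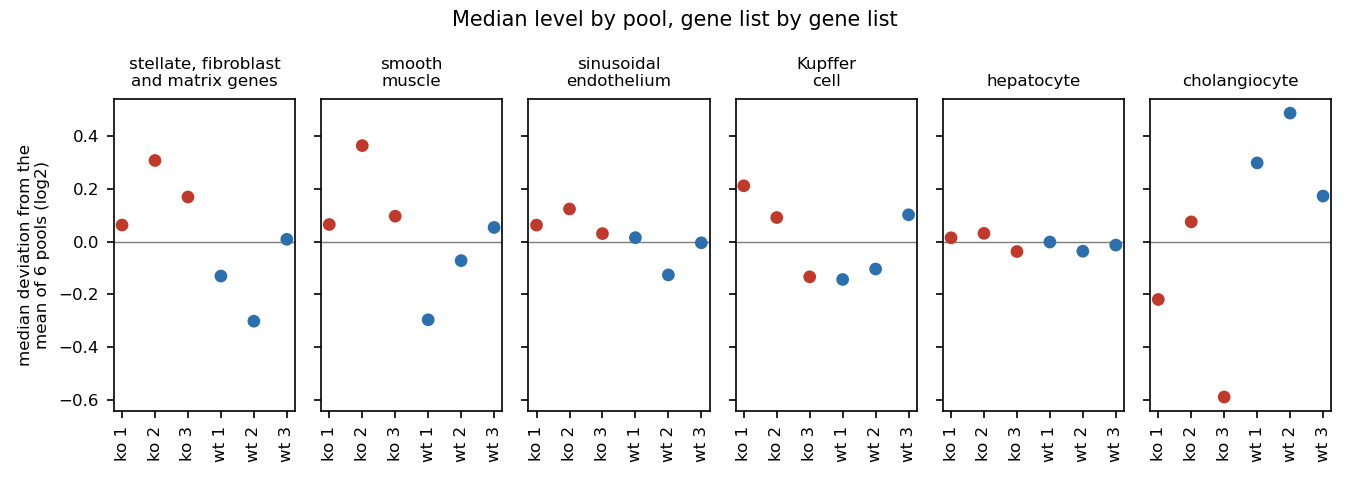
Median deviation from the mean of the 6 pools (log2, vertical axis shared by the panels) of the 30 stellate, fibroblast and matrix genes and of 5 marker lists, by pool, with knockout pools in red at the left and wild-type pools in blue at the right. The matrix genes run from 0.31 in knockout pool 2 to -0.30 in wild-type pool 2, and the hepatocyte markers stay between -0.04 and 0.03.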

How the data were processed

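Per the labels, liver RNA of 6 pools was biotin-labelled and hybridised to 1-colour arrays, 3 per genotype. The deposited values are linear probe set intensities of 0.0174 to 16555. The tool listed per the submitters' processing notes is GCOS 1.4. Its signal algorithm, scaling and detection calls were not given in the sources used here, and no limit of detection could be set for dim probe sets. Gene names came from the platform annotation, updated through a mouse gene table of GRCm38.p6, and 34945 probe sets had exactly 1 gene.

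The log2 of each intensity plus 5.26, the 25th percentile of all values, was quantile normalized. After leaving out 64 control probe sets, those with a mean at or above the median were fitted by lmFit of limma 3.58.1 (R 4.3.3), and eBayes moderated the variances along the intensity trend. A gene took its brightest tested probe set. The procedure was tested on simulated data. The genes and lists were chosen with earlier results of these data known. Named were all members, and up to 4 genes of each further list with the smallest p. Alternatives changed the scaling, pseudocount, filter, variance model, array weights, pairing, probe set rule and pools. Whether pools of a genotype shared animals is not stated.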

Additional observations from a re-analysis of the deposited data

How the results depend on the processing

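In 16 alternatives 0 of the tested members passed. The count of members at an unadjusted p under 0.05, 6 with all pools, was 2 of 19 tested under a stricter filter, at the 70th percentile (9.12% of all genes). It was 1 of 30 with no scaling between arrays (5.04% of all genes) and 9 of 30 with array weights (8.70% of all genes). With a pool left out it was 5 to 7 (5.86% to 10.3% of all genes). The count with a positive difference, 27 of 30, was 16 of 19 under the stricter filter (52.0% of all genes) and 20 of 30 with no scaling (23.6% of all genes). With a pool left out it ran from 19 of 27 to 28 of 30 (49.5% to 53.5% of all genes). The median of 0.24 ran from 0.17 to 0.30 with a pool left out and from 0.10 to 0.25 otherwise. The 32 probe sets passing were 20 with no filter, 19 with the stricter filter, 18 without the intensity trend, 143 with no scaling, 17 of 11102 genes when probe sets were averaged, and 18 to 29 with a pool left out. Of 258 values for 17 members, 243 kept their sign and their side of the threshold and 15 changed sign, none of them a call. Col3a1 became -0.028 with averaged probe sets and -0.044 with no scaling, and -0.076 to 0.35 with a pool left out. Lrat became -0.081 and Reln -0.10 with no scaling. With a pool left out Lrat ran from -0.041 to 0.27, Reln from -0.0038 to 0.11, Tagln from -0.029 to 0.21, Tgfb1 from -0.38 to 0.25 and Ctgf from -0.19 to 0.62. The cause of these changes was not tested. With the replicate number as a block, 32 probe sets passed, 9 members had an unadjusted p under 0.05 (9.66% of all genes in that fit, against 8.22% with no block) and the median was 0.24. Same-numbered pools had correlations of deviations of 0.13, 0.02 and 0.21, and differently numbered pools had correlations from -0.20 to 0.10. These values do not settle whether the pools were paired. The numbers were not taken as pairs because the labels name no pairing. The no-scaling setting and the count of positive differences were added after seeing the data. With 3 arrays per genotype and no detection calls, small differences and dim genes such as Timp1, Lox and Des are measured with low precision.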
